A study of Mus musculus with 20 samples.

Results

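The 10 genes described here encode semaphorins (Sema4a, Sema4b, Sema4d and Sema7a), their plexin receptors (Plxna1, Plxnb2, Plxnc1 and Plxnd1) and the neuropilin coreceptors (Nrp1 and Nrp2). They were taken by gene symbol from the 24421 genes of a count table, and all 10 were among the 12465 genes with enough counts to be tested. The table holds RNA-seq of murine bone marrow-derived dendritic cells (BMDCs) that were grown from wild-type C57BL/6 mice for 8 days in GM-CSF at 40 ng/mL, a culture that yields both dendritic and macrophage-like cells. Libraries of the 4 groups were assigned to 5 mice (A to E) by the order of their title numbers, giving 1 library per mouse and group. All groups received their stimulus for 4 h. The DMSO Ova group received 5% DMSO and ovalbumin, and the DMSO IC group received 5% DMSO and immune complexes of ovalbumin with IgG (IC), which cross-link Fcγ receptors. The iBET Ova and iBET IC groups received 3.3 μM I-BET151 (iBET), which blocks the bromodomains of BRD proteins that read acetylated histones, with ovalbumin or IC. The 5% comes from the labels, which give no DMSO content for the iBET groups. The methods describe iBET as diluted into culture from a stock in DMSO. Any difference in solvent between the DMSO and iBET groups therefore cannot be told apart from iBET. The labels and the methods also differ on whether iBET was given with or ahead of the stimulus. The comparisons ask how iBET and IC change these guidance genes in BMDCs, a cell type in which migration was studied.

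Semaphorins are membrane-bound or secreted guidance cues. They bind plexins, whose intracellular part acts on small GTPases and the actin cytoskeleton, and secreted semaphorins often need a neuropilin as a second receptor. In the immune system, plexin A1 on dendritic cells takes part in T cell contact and in passage into lymphatics, whereas Sema4a and Sema4d act as membrane ligands towards lymphocytes.

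Promoter windows of 4 members are printed here, since the windows of members that fell together differed widely in composition. They are those of Sema4d, which fell most with iBET, and of Plxnc1, which fell least with Ova. The others are those of Sema7a, which varied most between mice, and of the neuropilin that changed in all 4 comparisons. Each runs from 250 bases before to 50 bases after a RefSeq transcript start (GRCm38.p6, the assembly of the mm10 coordinates used for alignment), 5′ to 3′ on the gene's strand, with CpG dinucleotides in capitals. The Sema4d window lies at chr13:51748761-51749060 (minus strand), Sema7a at chr9:57939862-57940161 (plus strand), Plxnc1 at chr10:94944796-94945095 (minus strand) and Nrp2 at chr1:62703067-62703366 (plus strand).
Sema4d: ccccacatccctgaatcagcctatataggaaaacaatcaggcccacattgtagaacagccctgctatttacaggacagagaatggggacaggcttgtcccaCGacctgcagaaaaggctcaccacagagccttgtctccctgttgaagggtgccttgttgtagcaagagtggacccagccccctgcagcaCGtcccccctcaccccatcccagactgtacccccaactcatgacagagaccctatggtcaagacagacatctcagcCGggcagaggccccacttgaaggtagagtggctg
Sema7a: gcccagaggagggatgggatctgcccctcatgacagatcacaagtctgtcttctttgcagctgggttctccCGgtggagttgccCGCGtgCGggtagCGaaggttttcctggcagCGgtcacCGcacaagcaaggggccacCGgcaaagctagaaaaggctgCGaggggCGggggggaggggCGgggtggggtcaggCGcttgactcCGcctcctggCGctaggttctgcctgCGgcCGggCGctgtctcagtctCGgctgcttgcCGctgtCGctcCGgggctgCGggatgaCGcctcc
Plxnc1: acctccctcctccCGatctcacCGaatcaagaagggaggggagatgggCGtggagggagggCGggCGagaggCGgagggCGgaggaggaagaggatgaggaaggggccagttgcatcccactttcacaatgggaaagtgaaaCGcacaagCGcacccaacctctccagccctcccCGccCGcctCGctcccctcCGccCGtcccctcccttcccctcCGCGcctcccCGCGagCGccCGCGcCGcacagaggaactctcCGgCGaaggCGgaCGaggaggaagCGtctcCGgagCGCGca
Nrp2: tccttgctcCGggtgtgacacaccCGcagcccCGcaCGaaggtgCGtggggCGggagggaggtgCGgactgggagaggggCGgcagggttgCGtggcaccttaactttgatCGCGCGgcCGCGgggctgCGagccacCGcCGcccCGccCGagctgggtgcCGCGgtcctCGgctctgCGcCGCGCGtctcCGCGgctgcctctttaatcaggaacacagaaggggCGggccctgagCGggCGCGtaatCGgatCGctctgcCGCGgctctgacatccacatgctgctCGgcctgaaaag

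The Sema4d window held 3 CpG, against a median of 7 over 32851 mouse promoter windows. The other RefSeq starts of Sema4d (chr13:51756634-51756933 and chr13:51739397-51739696) held 2 and 3. All of these Sema4d windows lie inside the gene, whose annotated 5′ end (chr13:51793747) was covered by no window. Nrp2 held 37 CpG, more than 94.4% of all windows, Plxnc1 held 30 and Sema7a 23. Windows were found for 9 of the 10 members. Sema4a had 4 starts with 4 to 14 CpG, Nrp1 14, Plxnd1 23, Sema4b 26 and 28, and Plxnb2 27 and 15. Of the motifs searched on both strands, no member window held more than 1. The AP-1 motif TGANTCA, present in 7.81% of all windows, was found in the Sema4d window printed above. The E-box CACGTG (7.15% of windows) was found in 1 window of Sema4b (chr7:80198338-80198637). The TATA box TATAAA (13.6%) and the PU.1 motif GAGGAAGT (3.20%) had no match in any member window. Whether the BMDCs used any of these starts was not tested.

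The libraries held 16447491 to 29245150 counts each, and values are given as CPM (counts of a gene relative to the total of its library) normalised with the TMM method. Libraries of mice A and B lay apart from those of mice C, D and E on the second principal component (14.9% of the variance), with no batch named in the labels. Markers of dendritic cells were abundant: Itgax had 1718 to 2725 CPM, and the 7 listed genes together had 4322 to 9108 CPM, although Flt3 had at most 4.94 CPM. The 6 macrophage and monocyte markers, all of them detected, summed to 1284 to 1816 CPM in DMSO Ova, 1402 to 1949 CPM in DMSO IC, 899 to 1263 CPM in iBET Ova and 947 to 1455 CPM in iBET IC. These sums were therefore lower with iBET than with DMSO under ovalbumin in every library. With IC the same held within each set of mice, at 1319 to 1455 against 1796 to 1949 CPM in mice A and B and 947 to 1118 against 1402 to 1498 CPM in mice C, D and E. Csf1r, at 485 to 1235 CPM over all libraries, was the largest of the 6, and the sums rest most on it. Cd68 had 142 to 362 CPM, Adgre1 121 to 177, Mertk 55.4 to 135, Ly6c2 17.6 to 42.7 and C1qa 7.28 to 32.2 CPM. The 6 markers were not compared singly between iBET and DMSO, and their part in the results was not tested. T cell, B cell and NK cell markers summed to at most 0.848, 0.726 and 0.706 CPM, and Cd3e had a count in 3 of the 20 libraries. Neutrophil markers summed to 15.6 to 48.5 CPM in DMSO Ova and 12.1 to 37.0 CPM in DMSO IC. In iBET Ova they summed to 13.9 to 39.5 CPM and in iBET IC to 11.9 to 29.1 CPM. S100a8 and S100a9 had at most 18.4 and 27.1 CPM. Mast cell and basophil markers summed to at most 2.80 CPM. Endothelial and stromal markers summed to 5.06 to 6.87 CPM in DMSO Ova, 5.75 to 8.81 CPM in DMSO IC, 1.62 to 3.20 CPM in iBET Ova and 3.11 to 4.45 CPM in iBET IC. Pecam1, at 1.49 to 7.44 CPM over all libraries, was the largest part of these sums. Cdh5 had at most 1.32, Tie1 0.259, Col1a1 0.108 and Col1a2 0.0933 CPM. In such bulk samples, fewer cells of a type and less RNA per cell cannot be told apart.

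Per kilobase of exon, the only scale on which levels of different genes were compared, Plxnd1 had the highest level in DMSO Ova at 113 ± 20.8 CPM per kb (SD, n = 5) and Plxnb2 the lowest at 4.50 ± 1.05 CPM per kb. Between them lay Sema4a (63.2 ± 11.3) and Plxna1 (61.7 ± 4.38), whose ranges overlapped. Nrp2 (36.1 ± 3.16), Plxnc1 (29.2 ± 4.14) and Sema4d (25.1 ± 4.69) followed, each overlapping its neighbour. Sema7a (15.8 ± 8.87), Sema4b (12.8 ± 2.22) and Nrp1 (12.7 ± 1.10) also overlapped each other. With the mean length of coding transcripts in place of all exons, the highest were again Plxnd1 (217 CPM per kb), Sema4a (185 CPM per kb) and Plxna1 (75.3 CPM per kb). In the iBET groups Sema4d moved down the order, to 4.98 ± 0.836 CPM per kb in iBET Ova, where only Plxnb2 (2.46 ± 0.346 CPM per kb) had a lower mean and the ranges of Sema4d and Sema7a overlapped.

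**Figure D1:**
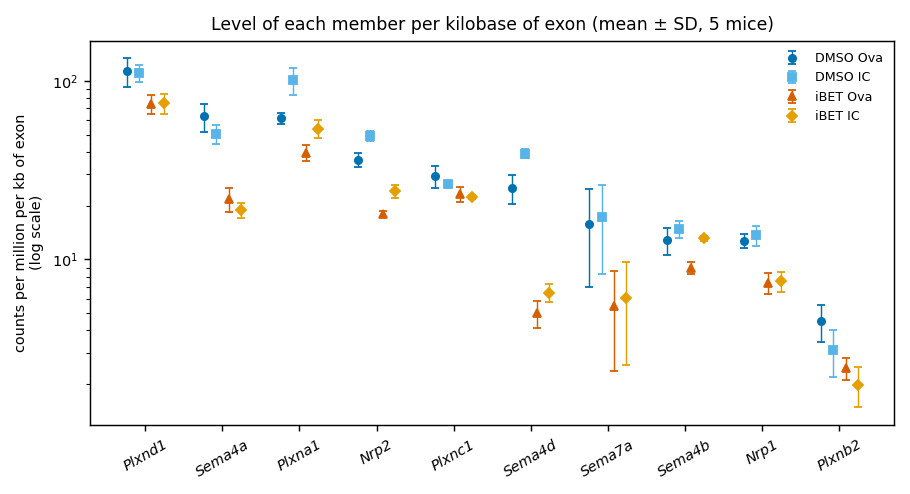
Level of each member in CPM per kilobase of exon (log axis), ordered by the level in DMSO Ova; symbols are means and bars the SD over 5 mice in each of the 4 groups. Plxnd1 had the highest mean in every group (74.0 to 113 CPM per kb) and Plxnb2 the lowest (1.99 to 4.50 CPM per kb). In DMSO IC the range of Plxnd1 (98.5 to 129 CPM per kb) overlapped that of Plxna1 (82.1 to 128 CPM per kb). In iBET IC Plxnb2 (1.21 to 2.48 CPM per kb) overlapped Sema7a (2.21 to 8.92 CPM per kb). The widest bars belong to Sema7a.

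iBET lowered all 10 genes in Ova-treated cells and 9 of the 10 in IC-treated cells, and none rose. The 10 were chosen with earlier results of these data known, so this count does not speak for the whole family. Among other semaphorins and plexins that passed the count filter within each treatment, Sema4c, Sema6b and Sema6d fell. Plxna3 rose, and Plxna2 was not called. The median log2 fold change of the members was -0.82 with Ova (range -2.33 to -0.33) and -0.88 with IC (range -2.58 to -0.17). Over all genes tested the medians were -0.00 and -0.01. With Ova 28.9% of all tested genes were lower and 27.7% higher with iBET at an adjusted p under 0.05, and with IC 29.0% were lower and 27.1% higher. The 4 semaphorins fell by a median log2 of 1.53 with Ova and the 4 plexins by 0.63. The neuropilins fell by 0.78 (Nrp1) and 1.0 (Nrp2).

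**Figure D2:**
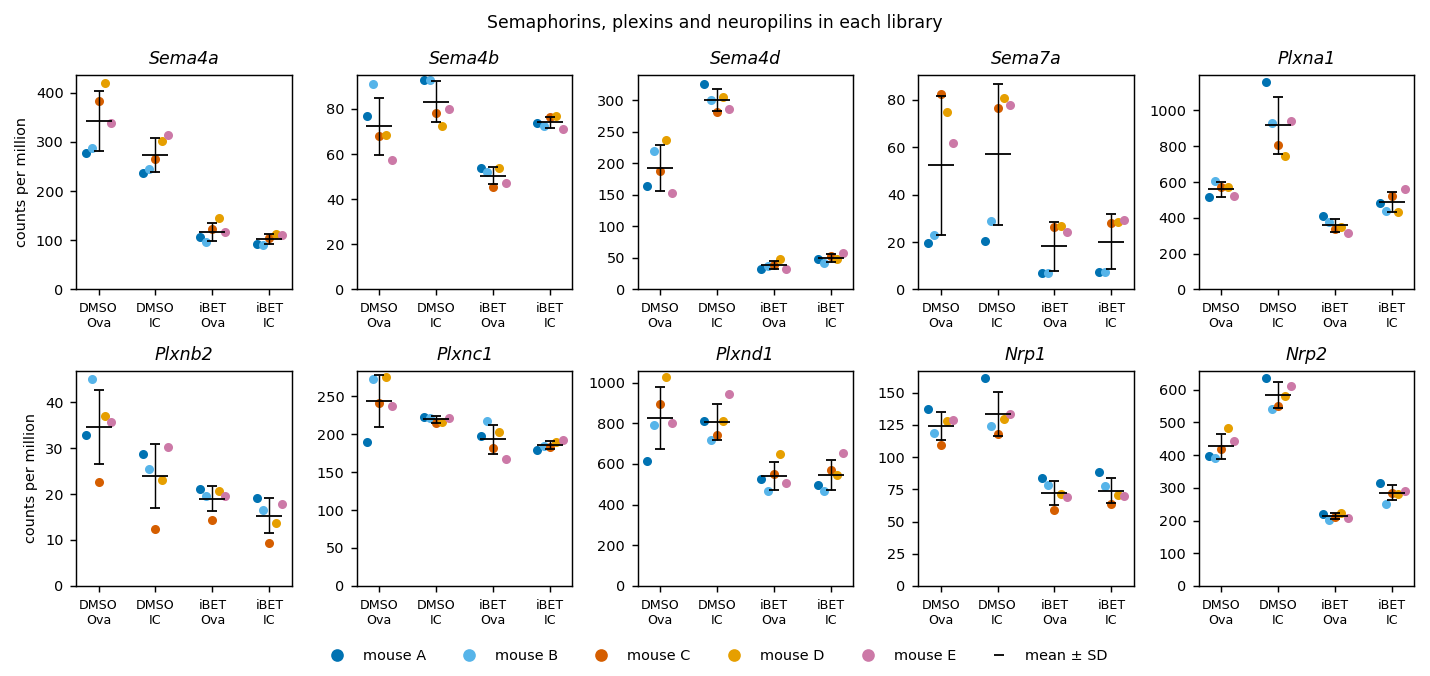
TMM-normalised CPM of each member in all 20 libraries (linear axes from 0), coloured by mouse, with the mean and SD of each group in black. Sema4d showed the widest separation between DMSO and iBET (153 to 326 against 32.4 to 58.4 CPM), and Sema7a split into mice A and B below mice C, D and E in every group.

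Among the ligands, Sema4d showed the largest fall. Sema4d (CD100; chromosome 13, 51685529 to 51793747, minus strand, GRCm38) is a transmembrane semaphorin that binds B-type plexins and CD72. In mice A to E it had 164, 220.1, 188, 238 and 153 CPM in DMSO Ova and 33.1, 37.8, 39.5, 48.4 and 32.4 CPM in iBET Ova. With IC it had 326, 301, 282, 305 and 286 CPM with DMSO and 47.9, 42.7, 52.5, 48.9 and 58.4 CPM with iBET. All iBET libraries lay below all DMSO libraries. iBET changed Sema4d by a log2 of -2.33 ± 0.127 (SE) with Ova, a 5.04-fold fall (edgeR adjusted p = 1.21e-11), and under IC -2.58 ± 0.128, a 6.00-fold fall (edgeR adjusted p = 3e-12). The fall was present in 5 of 5 mice in both comparisons.

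Sema4a (chromosome 3, 88435959 to 88461182, minus strand), a transmembrane semaphorin of dendritic cells that promotes T cell priming, had 278, 288, 383, 421 and 338 CPM in mice A to E in DMSO Ova and 106, 96.5, 122, 145 and 117 CPM in iBET Ova. In the IC groups it had 237, 245, 266, 302 and 314 CPM with DMSO and 93.4, 90.6, 104, 112 and 111 CPM with iBET. The groups did not overlap. It fell by a log2 of 1.54 ± 0.126 (SE) with Ova, 2.91-fold (edgeR adjusted p = 3.54e-09), and by 1.41 ± 0.125 with IC, 2.67-fold (edgeR adjusted p = 1.11e-08). Mice A and B lay below mice C, D and E in all 4 groups, by a factor of 1.19 to 1.35 between the means of these sets.

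Sema7a (chromosome 9, 57940112 to 57962865, plus strand), a GPI-anchored semaphorin that binds plexin C1 and integrin β1, differed more between mice than any other member. Its CPM in mice A to E was 19.6, 22.9, 82.3, 74.6 and 61.9 in DMSO Ova and 6.87, 6.83, 26.1, 26.7 and 24.3 in iBET Ova. In the IC groups it was 20.5, 28.6, 76.6, 80.8 and 77.9 with DMSO and 7.44, 7.27, 27.9, 28.5 and 29.4 with iBET. Mice C, D and E had 3.19 to 3.89 times the mean level of mice A and B in each group, so the DMSO and iBET groups overlapped. Within each mouse, however, iBET lowered Sema7a by a similar amount, with a log2 change of -1.68 to -1.33 with Ova and -1.91 to -1.39 with IC. The pooled log2 fold change was -1.53 ± 0.548 (SE) under Ova (edgeR adjusted p = 0.0228) and -1.51 ± 0.546 under IC (edgeR adjusted p = 0.0237). Leaving out mouse C, D or E ended both calls (edgeR adjusted p = 0.0763, 0.0602 and 0.0582 under Ova, and 0.0639, 0.064 and 0.0635 under IC), whereas with the mouse as a block the edgeR adjusted p was 5.89e-12 and 4.33e-12. The summed dendritic cell markers split the mice in the same way in DMSO Ova. They had 4322 to 4680 CPM in mice A and B and 5896 to 6948 CPM in mice C, D and E. The summed macrophage markers split them in the opposite way (1794 to 1816 against 1284 to 1460 CPM). Summed neutrophil markers were lower in mice A and B (15.6 to 16.3 against 18.9 to 48.5 CPM in DMSO Ova), without overlap in any of the 4 groups. Over the libraries of all groups, Zbtb46, Cd74, H2-Aa, Ccr7 and Dpp4 were each higher in mice C, D and E without overlap. Flt3 overlapped, as did Itgax, at 1965 to 2725 CPM in mice A and B and 1718 to 2331 CPM in the others. Of the macrophage markers only Mertk split without overlap (92.7 to 135 against 55.4 to 83.8 CPM). The part of these differences in the level of Sema7a was not tested.

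Sema4b (chromosome 7, 80186841 to 80226527, plus strand), another transmembrane semaphorin, was the member whose call differed between the stimuli. It had 57.2 to 90.9 CPM in DMSO Ova and 45.4 to 53.7 CPM in iBET Ova, without overlap, and fell by a log2 of 0.52 ± 0.0977 (SE, edgeR adjusted p = 0.000152). In the IC groups its ranges overlapped, at 72.4 to 92.8 CPM with DMSO and 71.3 to 76.8 CPM with iBET. The log2 fold change there was -0.17 (95% interval -0.37 to 0.04, edgeR adjusted p = 0.15), lower in 4 of 5 mice. It was -0.33 in mice A and B (edgeR adjusted p = 0.0232) and -0.01 in mice C, D and E. With library size alone it passed at -0.22 (edgeR adjusted p = 0.0431), and with surrogate variables at -0.20 (edgeR adjusted p = 0.0157).

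Of the receptors, Plxna1 (chromosome 6, 89316314 to 89362620, minus strand) encodes the plexin A1 of dendritic cells, which pairs with neuropilin 1 or with Trem2 and Tyrobp. It had 514, 608, 574, 574 and 522 CPM in mice A to E in DMSO Ova and 409, 376, 338, 348 and 317 CPM in iBET Ova. With IC it had 1158, 929.6, 807, 743 and 941 CPM with DMSO and 483, 436, 522, 430.3 and 561 CPM with iBET. The iBET libraries lay below the DMSO libraries under both stimuli. The log2 fold change was -0.64 ± 0.106 (SE) under Ova (edgeR adjusted p = 3.64e-05) and -0.91 ± 0.107 under IC (edgeR adjusted p = 4.93e-07), lower in 5 of 5 mice in each.

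Plxnd1 (chromosome 6, 115954811 to 115995005, minus strand), a receptor of Sema3e and Sema4a, ranged from 615 to 1029 CPM in DMSO Ova and from 468 to 648 CPM in iBET Ova, with overlap. With IC it had 719 to 944 CPM with DMSO and 465 to 654 CPM with iBET, without overlap. The log2 fold change was -0.61 ± 0.122 (SE, edgeR adjusted p = 0.000277) and -0.56 ± 0.122 (edgeR adjusted p = 0.000634), lower in 5 of 5 mice in each comparison.

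Plxnb2 (chromosome 15, 89155549 to 89180788, minus strand), a receptor of transmembrane semaphorins, had the lowest mean level per kilobase of exon. It had 22.7 to 45.1 CPM in DMSO Ova and 14.4 to 21.1 CPM in iBET Ova. These groups did not overlap, and those with IC did (12.4 to 30.2 CPM with DMSO, 9.37 to 19.1 CPM with iBET), with mouse C lowest in all 4 groups. The log2 fold change was -0.86 ± 0.217 (SE) under Ova (edgeR adjusted p = 0.00208) and -0.64 ± 0.218 under IC (edgeR adjusted p = 0.0172). The call with IC was lost without mouse B, D or E (edgeR adjusted p = 0.0527, 0.0697 and 0.0672), as it was for mice C, D and E alone (edgeR adjusted p = 0.0741). These fits leave out the pairing by mouse. With all 5 mice and the mouse as a block it was -0.63 (edgeR adjusted p = 3.66e-05), lower in 5 of 5 mice.

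Plxnc1 (chromosome 10, 94790866 to 94944835, minus strand), the plexin that binds Sema7a, had the smallest fall with Ova and the smallest that passed with IC. It had 190.4 to 276 CPM in DMSO Ova and 168 to 217 CPM in iBET Ova, and 215 to 223 CPM in DMSO IC and 179.7 to 193 CPM in iBET IC. The Ova groups overlapped and the IC groups did not. The log2 fold change was -0.33 ± 0.083 (SE, edgeR adjusted p = 0.00206) under Ova, with 4 of 5 mice lower, and under IC -0.24 ± 0.083 (edgeR adjusted p = 0.0195), lower in 5 of 5. The call with IC was lost without mouse B or C (edgeR adjusted p = 0.056 and 0.0662) and in each set of mice alone, at -0.27 in A and B (edgeR adjusted p = 0.168) and -0.18 in C, D and E (edgeR adjusted p = 0.0659). That with Ova was lost in mice A and B alone, at -0.16 (edgeR adjusted p = 0.411). With the mouse as a block Plxnc1 passed under Ova (-0.33, edgeR adjusted p = 0.000641) and under IC (-0.24, edgeR adjusted p = 0.00743).

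Both neuropilins fell in every mouse. Nrp2 (chromosome 1, 62703285 to 62818695, plus strand), a coreceptor of secreted semaphorins and of VEGF-C that carries polysialic acid on dendritic cells, had 399, 391, 420, 484 and 442 CPM in mice A to E in DMSO Ova and 220.1, 203, 211, 223 and 209 CPM in iBET Ova. With IC it had 636, 542, 551, 579.96 and 610.5 CPM with DMSO and 314, 252, 286, 283 and 290.03 CPM with iBET. The groups did not overlap, and the spread between mice was small. Its log2 fold change was -1.0 ± 0.0697 (SE) under Ova (edgeR adjusted p = 4.04e-10) and -1.03 ± 0.0697 under IC (edgeR adjusted p = 2.42e-10). Nrp1 (chromosome 8, 128358604 to 128503363, plus strand), the coreceptor of Sema3a and of VEGF-A, had 109 to 137 CPM in DMSO Ova and 59.0 to 83.7 CPM in iBET Ova, and 118 to 162 CPM in DMSO IC and 63.3 to 88.6 CPM in iBET IC. Its groups did not overlap either, and the log2 fold change was -0.78 ± 0.105 (SE, edgeR adjusted p = 2.86e-06) and -0.85 ± 0.105 (edgeR adjusted p = 9.67e-07).

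**Figure D3:**
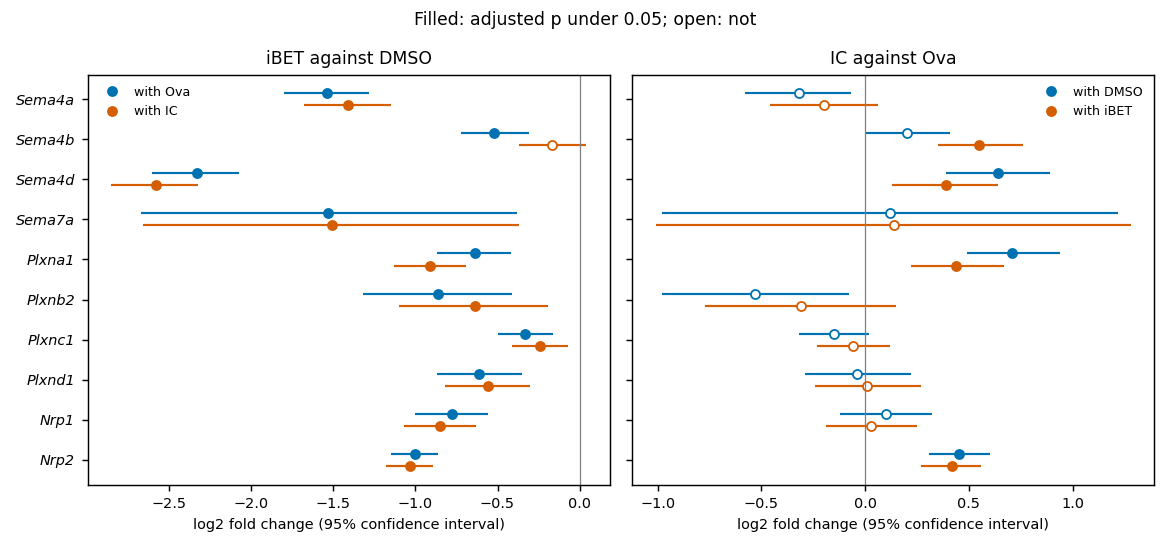
Log2 fold change of each member with its 95% confidence interval, for iBET against DMSO (left) and IC against Ova (right); filled points passed an adjusted p under 0.05 (edgeR) and open points did not. All points of iBET against DMSO lie below 0, from -2.58 (Sema4d with IC) to -0.17 (Sema4b with IC), whereas those of IC against Ova lie between -0.53 and 0.71.

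IC stimulation raised Sema4d, Plxna1 and Nrp2, with and without iBET, and Sema4b with iBET. With DMSO 3 of the 10 members rose and none fell, against 9.59% of all tested genes higher and 10.7% lower. With iBET 4 rose and none fell, against 5.19% of all tested genes higher and 6.63% lower. The median log2 fold change of the members was 0.11 with DMSO and 0.08 with iBET (all genes tested, -0.02 and -0.01). When the mouse was entered as a block, 4 members rose and 2 fell with either treatment, while 18.3% of all genes were then higher and 19.8% lower with DMSO, and 14.2% and 14.7% with iBET. With library size alone 3 rose and 3 fell with DMSO (Sema4a, Plxnb2 and Plxnc1 fell), on a scale that moved the median of all genes to -0.13.

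Plxna1 showed the largest rise, from 514 to 608 CPM in DMSO Ova to 743 to 1158 CPM in DMSO IC, a log2 fold change of 0.71 ± 0.106 (SE, edgeR adjusted p = 0.00012). With iBET it rose by 0.44 ± 0.106 (edgeR adjusted p = 0.00979), a call that was lost without mouse C or E (edgeR adjusted p = 0.0745 and 0.0808) and within mice A and B, where it was 0.24 (edgeR adjusted p = 0.315). With the mouse as a block this rise of Plxna1 was 0.45 (edgeR adjusted p = 0.00225). Sema4d rose in 5 of 5 mice with DMSO, by a log2 of 0.64 ± 0.12 (SE, edgeR adjusted p = 0.001). With iBET its groups overlapped and it rose by 0.39 ± 0.122 (edgeR adjusted p = 0.0436). This last call ended in several settings, among them without mouse A, B, C or E (edgeR adjusted p = 0.127, 0.0764, 0.161 and 0.17), with library size alone (0.28, edgeR adjusted p = 0.129) and within either set of mice (edgeR adjusted p = 0.192 in A and B, 0.127 in C, D and E). With the mouse as a block this rise of Sema4d was 0.40 (edgeR adjusted p = 0.0111).

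Nrp2 rose by a log2 of 0.45 ± 0.069 (SE) with DMSO (edgeR adjusted p = 0.000153) and by 0.42 ± 0.0692 with iBET (edgeR adjusted p = 0.0006), and its groups did not overlap in either comparison. The call with iBET was lost in mice A and B alone, at 0.43 (edgeR adjusted p = 0.0989), and held with the mouse as a block (0.42, edgeR adjusted p = 1.68e-05). Sema4b rose with iBET, from 45.4 to 53.7 CPM in iBET Ova to 71.3 to 76.8 CPM in iBET IC, by a log2 of 0.55 ± 0.0977 (edgeR adjusted p = 0.00103). With DMSO its value was 0.20 (95% interval 0.00 to 0.41, edgeR adjusted p = 0.147), and with the mouse as a block it was 0.21 (edgeR adjusted p = 0.0372). The level of Sema4d in iBET IC (42.7 to 58.4 CPM) stayed below its lowest value in DMSO Ova (153 CPM), and the same held for Nrp2 (252 to 314 CPM against 391 CPM).

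The other members did not pass in the comparison of IC with Ova. Sema4a had log2 fold changes of -0.32 (95% interval -0.58 to -0.07, edgeR adjusted p = 0.0678) with DMSO and -0.20 (-0.46 to 0.06, edgeR adjusted p = 0.333) with iBET, lower in 5 of 5 mice in each. It passed with the mouse as a block (-0.32, edgeR adjusted p = 0.00044, and -0.19, edgeR adjusted p = 0.0234). Plxnb2 had -0.53 (-0.98 to -0.08, edgeR adjusted p = 0.086) and -0.31 (-0.77 to 0.15, edgeR adjusted p = 0.406), with 5 of 5 mice lower, and also passed with the block (-0.55, edgeR adjusted p = 0.000333, and -0.33, edgeR adjusted p = 0.0278). Intervals for Plxnc1 were -0.32 to 0.02 with DMSO and -0.23 to 0.12 with iBET. For Plxnd1 they were -0.29 to 0.22 and -0.24 to 0.27, and for Nrp1 -0.12 to 0.32 and -0.19 to 0.25. Sema7a, with its wide spread between mice, had intervals of -0.98 to 1.22 and -1.01 to 1.28.

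The effect of iBET did not differ detectably between Ova and IC for any member. None passed the test of the interaction in edgeR, with or without the mouse as a block, or in DESeq2, and 1 had an unadjusted p under 0.05 in edgeR, against 543 of the 12465 genes tested. Of all genes tested, 0.0241% had a higher and 0.0160% a lower interaction. The smallest p among the members belonged to Sema4b, with an interaction of 0.35 ± 0.138 (SE, log2 scale, edgeR quasi-likelihood fit over all genes, adjusted p = 0.983), above 0 in 5 of 5 mice. Plxna1 followed, with -0.27 ± 0.15 (edgeR adjusted p = 1), below 0 in 4 of 5 mice. For Plxna1 this was -0.65 in mice A and B and -0.00 in mice C, D and E. The differing calls of Sema4b with Ova and with IC are thus not shown to be different effects.

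Of 16 further semaphorin genes 7 passed the count filter. Sema4c, Sema6b and Sema6d passed it within each treatment, and all 3 fell with iBET under both stimuli. Sema6d, the transmembrane ligand of plexin A1, was the most counted of them, at 47.0 to 99.2 CPM in DMSO Ova and 25.3 to 40.8 CPM in iBET Ova. Its log2 fold change was -1.23 ± 0.193 (SE, edgeR adjusted p = 1.91e-05) with Ova and -1.24 ± 0.195 (edgeR adjusted p = 2.03e-05) with IC. Sema6b, a related transmembrane semaphorin, fell from 18.1 ± 2.66 to 4.49 ± 0.572 CPM (SD, n = 5) with Ova, a log2 fold change of -2.0 (edgeR adjusted p = 1.91e-10), and by 1.82 with IC (edgeR adjusted p = 6.9e-10). Sema4c fell by 1.21 under Ova (edgeR adjusted p = 0.000116) and by 1.38 under IC (edgeR adjusted p = 2.78e-05). Sema6a, with 4 to 45 counts per library in DMSO Ova and 0 to 10 in iBET Ova, differed by a log2 of -2.45 under Ova and -2.44 under IC. Sema3c, a secreted semaphorin with at most 32 counts, had -1.01 with Ova and -1.94 with IC. Both passed the count filter through the DMSO libraries alone, so a difference in this direction was favoured by the filter, and their tests are not used.

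Sema6c and Sema3f, in contrast, passed the filter through the iBET libraries alone, and their values are given as a description. Sema6c had 1 to 6 counts per library in DMSO Ova and 49 to 77 in iBET Ova, a log2 fold change of 4.13 ± 0.361 (SE), and a log2 fold change of 3.34 ± 0.346 with IC. Sema3f, the secreted ligand of neuropilin 2, had 0 or 1 count in each DMSO library, 8 to 15 counts in iBET Ova and 3 to 9 in iBET IC. The filter left these genes no other direction, and their size on a fold scale rests on very few counts. Sema3a, Sema3b, Sema3d, Sema3e, Sema3g, Sema4f, Sema4g, Sema5a and Sema5b had at most 13 counts in any library and were not tested. For IC against Ova none of the 7 tested genes passed without the block. With the mouse as a block Sema6d was lower with IC, by 0.46 with DMSO (edgeR adjusted p = 2.58e-05) and by 0.47 with iBET (edgeR adjusted p = 6.71e-05), in 5 of 5 mice in each, and Sema6b was lower by 0.22 with DMSO (edgeR adjusted p = 0.0482).

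**Figure D4:**
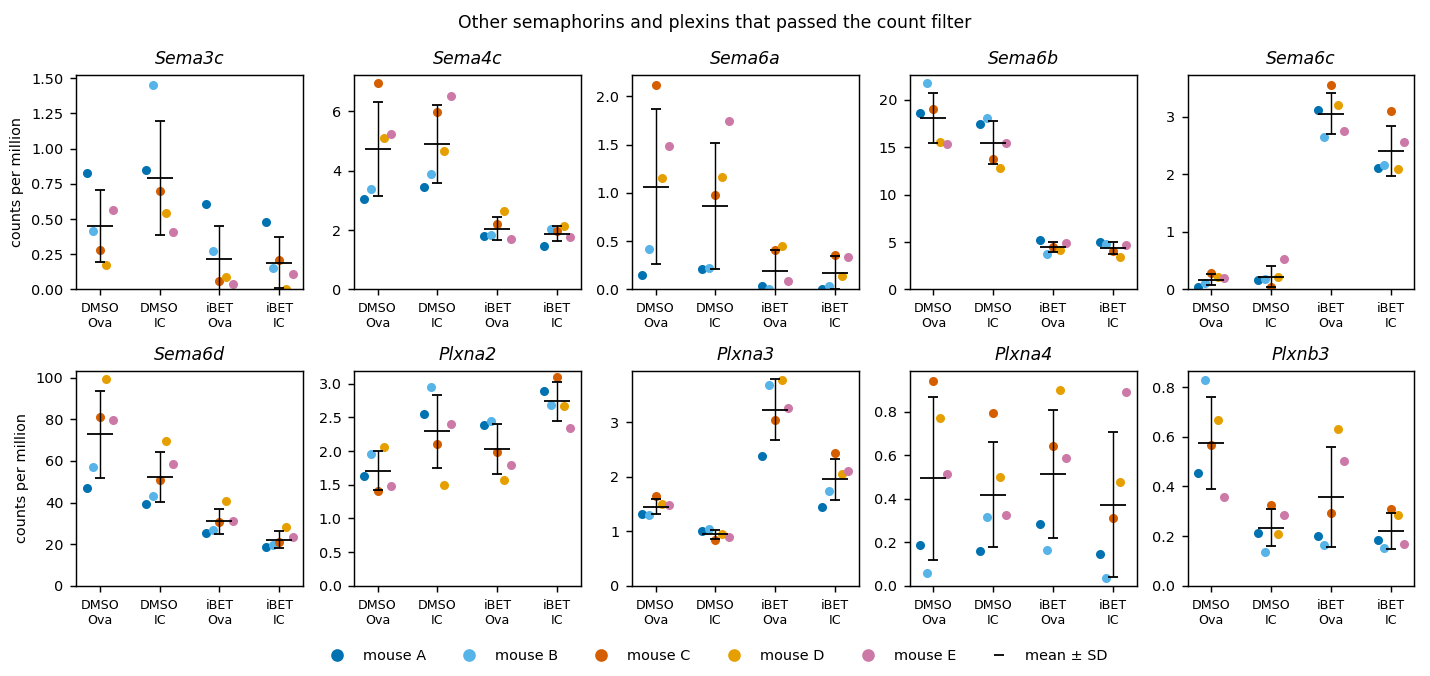
TMM-normalised CPM of the other tested semaphorins and plexins in all 20 libraries (linear axes from 0), coloured by mouse, with the mean and SD of each group in black; Sema3f, with 0 or 1 count in the DMSO libraries, is not drawn. Sema4c, Sema6b and Sema6d were lower in all iBET libraries than in all DMSO libraries of the same stimulus, and Plxna3 was higher, while Sema6a, Sema3c, Sema6c, Plxna4 and Plxnb3 passed the count filter through part of the groups.

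Of the other plexins, Plxna3 rose with iBET, from 1.45 ± 0.143 to 3.23 ± 0.564 CPM (SD, n = 5) with Ova, a log2 fold change of 1.15 (edgeR adjusted p = 3.22e-06), and by 1.03 with IC (edgeR adjusted p = 2.23e-05). It was lower with IC than with Ova, by 0.62 with DMSO (edgeR adjusted p = 0.0132) and by 0.73 with iBET (edgeR adjusted p = 0.00386). Plxnb3, with at most 19 counts, passed the filter through the Ova libraries alone, and its value for IC against Ova was -1.27 with DMSO and -0.73 with iBET. Under iBET its change was -0.64 under Ova (edgeR adjusted p = 0.108) and -0.11 under IC (edgeR adjusted p = 0.835). Plxna2 had 0.25 and 0.26 with iBET (edgeR adjusted p = 0.245 and 0.215), and passed for IC against Ova with iBET when the mouse was a block (0.43, edgeR adjusted p = 0.0475). Plxna4 had 0.03 and -0.27 (edgeR adjusted p = 0.971 and 0.747). Plxnb1, a receptor of Sema4d, had at most 4 counts in a library and was not tested.

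Together with coreceptors, other neuropilin ligands and intracellular transducers, the list of further pathway genes held 64 genes, of which 47 were tested. With iBET 12 were higher and 15 lower with Ova (median log2 fold change -0.10), and 13 were higher and 15 lower with IC (median -0.11). Of the 39 that passed the count filter within each treatment, 10 were higher and 13 lower with Ova, and 10 were higher and 12 lower with IC. These shares lay near those of all tested genes given above (27.7% higher and 28.9% lower with Ova, 27.1% and 29.0% with IC), and nothing particular to the list is read from them. Met, the receptor of hepatocyte growth factor and a partner of B-type plexins, fell from 46.4 ± 7.15 to 15.6 ± 2.05 CPM (SD, n = 5) with Ova and from 184 ± 25.2 to 39.2 ± 5.27 CPM with IC. The log2 fold change was -1.57 under Ova (edgeR adjusted p = 3.65e-09) and, under IC, -2.23 (edgeR adjusted p = 2.49e-11). Met also rose with IC, by 1.98 with DMSO (edgeR adjusted p = 3.29e-09) and by 1.33 with iBET (edgeR adjusted p = 1.33e-06). Its interaction was -0.66 (edgeR adjusted p = 0.406) and passed with the mouse as a block (-0.67, edgeR adjusted p = 0.0106), below 0 in 5 of 5 mice. Pgf, a growth factor of the VEGF family that binds neuropilins, fell with iBET by 1.77 under Ova (edgeR adjusted p = 3.92e-05) and by 1.57 under IC (edgeR adjusted p = 0.000157). Of the transducers, Mical1, an enzyme that oxidises actin downstream of plexins, fell by 1.69 under Ova (edgeR adjusted p = 4.34e-08) and by 1.5 under IC (edgeR adjusted p = 2.32e-07). Farp2, an exchange factor that binds plexin A1, rose by 1.62 under Ova (edgeR adjusted p = 3.35e-09) and by 2.03 under IC (edgeR adjusted p = 2.49e-10).

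For IC against Ova, 3 of the 47 genes were higher and 9 lower with DMSO, and 2 were higher and 3 lower with iBET, where 9.59% and 10.7% of all tested genes were called with DMSO and 5.19% and 6.63% with iBET. With the mouse as a block these numbers were 8 and 15 with DMSO (18.3% and 19.8% of all genes), and 8 and 7 with iBET (14.2% and 14.7%). The 9 and the 15 lower with DMSO include Plxnb3, which passed the count filter through the Ova libraries alone. A fall of Plxnb3 with IC was favoured by the filter, and its test is not used. None passed the test of the interaction in edgeR, with 3 at an unadjusted p under 0.05, as had 543 of the 12465 genes tested. With the block Met was the 1 gene that passed, and 0.401% of all genes then had a higher and 0.417% a lower interaction.

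The genes whose pattern over the 20 libraries lay closest to Sema4d, by the mean absolute difference of log2 CPM centred on each gene's mean, were Fblim1 (0.143), Ampd3 (0.245) and Creb5 (0.247), with a median of 1.23 over all tested genes. Fblim1, which encodes a filamin-binding adaptor, had log2 fold changes with iBET of -2.65 with Ova and -2.66 with IC. For Nrp2 the closest were Syk (0.0666), Vav1 (0.0972) and Sept9 (0.11), with a median of 0.564. Syk, the tyrosine kinase downstream of Fcγ receptors, had log2 fold changes of -0.97 and -0.92 with iBET and 0.35 with IC in DMSO, beside -1.0, -1.03 and 0.45 for Nrp2. These genes were picked by their pattern over the same 20 libraries, so similar fold changes follow from the choice.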

How the data were processed

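RNA-seq libraries of BMDCs (SMARTer pico kit) from 5 mice in 4 groups were analysed. The authors trimmed the reads with Trim Galore, aligned them to mm10 with HISAT2 and deposited raw counts per gene from featureCounts; the annotation, strand setting and handling of multi-mapping reads are not given in the sources used here. Antisense genes lie within Nrp2 and Plxna1 (Gm29083 and Gm26811), neither of them a row of the table, so their reads cannot be told apart from these members if strand was not used. The authors also deposited signal values, which are the counts divided by 1 size factor per library (largest relative difference to DESeq2's factors 2.22e-16). The labels describe the cells as sorted into lysis buffer, whereas the methods describe lysis in culture.

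Counts were filtered with filterByExpr (12465 of 24421 genes kept), TMM-normalised and fitted with edgeR 4.0.16 (R 4.3.3, quasi-likelihood test) in 1 fit of 20 libraries, with the 4 groups as the only factor. P values were adjusted by Benjamini-Hochberg over all tested genes, with a threshold of 0.05. The methods name DESeq2 and sva without a design. Titles hold a running number and the group, and each run of 4 numbers was taken as 1 mouse. Deviations from the group means were shared by libraries of such a run (mean correlation across genes 0.524 over 30 pairs, lowest 0.307). Between other libraries the mean correlation was -0.156. The pairing by mouse is thus read from this order. The mouse block, DESeq2 1.42.0, other scalings, 3 surrogate variables (sva 3.50.0), no filter, limma 3.58.1 on log2(signal + 1), each mouse left out, sets of mice, the 10 libraries compared and a log2 fold change of at least 1 were the alternatives. The scripts were tested on simulated data. Replicates differed by more than counting error, so errors are SD between mice or SE of the fit. Per-mouse log2 changes used an offset of 0.5 CPM.

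Named genes are the members, the tested semaphorins and plexins of the pathway list, the 2 members with the smallest interaction p, in each iBET comparison the 3 pathway genes with the largest change (past the threshold, the same way in 5 mice, mean of at least 100 counts), and the 3 genes most like the ligand and the receptor with the largest iBET change. Members, lists and sets of mice were chosen with earlier results of these data known. Promoters are from RefSeq (GRCm38.p6) and gene positions and exon lengths from GENCODE M21 (GRCm38).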

Additional observations from a re-analysis of the deposited data

Results flagged for a closer look

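Plxnb2 in mouse C of the iBET Ova group was the 1 value among 40 tested (10 genes in 4 groups) that lay far from the others of its group, with a gap to its nearest neighbour of 0.763 of the group's range (Dixon's 95% critical value for 5 samples 0.71). It had 14.4 CPM, against 19.5 CPM in the nearest library. Such a gap is met by chance in about 1 in 20 groups. Mouse C also had the lowest Plxnb2 value in the other 3 groups, at 22.7, 12.4 and 9.37 CPM.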

How the results depend on the processing

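The direction of the iBET comparisons held in all alternatives run for all 10 members, with 10 members lower with Ova except where a mouse was left out (9 to 10), in mice A and B alone (9) or where the log2 fold change also had to reach 1 in size (4). With IC 7 to 10 were lower, and 4 at that fold change. At that fold change none of the members passed for IC against Ova with DMSO (0) or with iBET (0), and 15, 14, 2 and 1 pathway genes passed in the 4 comparisons. For IC against Ova with DMSO, 6 members passed with the replicate block in edgeR, 6 with it in DESeq2, 6 with library size only, 6 with surrogate variables and 5 in mice C, D and E. Pathway genes numbered 23 with the replicate block in edgeR, 23 with it in DESeq2, 22 with surrogate variables, 4 in mice A and B, 21 in mice C, D and E, and 5 to 10 with each mouse left out (5 without C, 6 without D or E). For IC against Ova with iBET, 1 member passed in mice A and B, and 2 to 4 with each mouse left out (2 without C or E). Pathway genes there numbered 15 and 14 with the replicate block (edgeR and DESeq2), 18 with surrogate variables, 1 in mice A and B and 9 in mice C, D and E. For the interaction, 1 pathway gene passed with the replicate block in edgeR, 1 with it in DESeq2 and 1 in mice C, D and E. The replicate block changed no call of a member for iBET against DMSO or in the interaction.

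Directions that turned were of values near 0 in IC against Ova. With DMSO, Nrp1 was -0.01 with library size only, and Plxnd1 was 0.06 with surrogate variables, 0.11 in mice A and B and -0.13 to 0.05 with each mouse left out (0.03 without C, 0.05 without D). With iBET, Plxnd1 was -0.09 with library size only, -0.01 with surrogate variables, -0.04 in mice A and B and -0.08 to 0.09 with each mouse left out (-0.08 without E). Nrp1 was -0.07 with library size only, Sema7a -0.01 with surrogate variables and Plxnc1 0.03 in mice C, D and E. The cause was not tested. Of 670 comparisons of 42 single-gene values with their alternatives, 605 kept direction and side of the threshold, 28 lost the call, 25 gained it and 12 turned. Library size only moved the median of all genes for IC against Ova to -0.13 with DMSO and -0.12 with iBET, from -0.02 and -0.01 with TMM. Depth was not limiting for the members, whose lowest count in a library was 181 (Plxnb2), whereas Sema3f and Plxnb3 rested on at most 15 and 19 counts.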
